A study of Mus musculus with 5 samples.

Results

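The cytosolic ribosomal protein genes encode the proteins of the large and small subunits of the ribosome that translates nuclear messages. They were taken from the table of all genes by name: symbols beginning Rpl, Rps or Rplp followed by a number and at most 1 of the letters a, x, y or l, leaving out the separate genes Rps27l, Rpl3l and Rps4l and the Rps6k kinases. The rule found 67 of 14462 rows, of which 39 encode large subunit proteins, 25 small subunit proteins and 3 the P-stalk (Rplp0, Rplp1 and Rplp2). All 67 passed the filter on low values and were among the 12777 rows tested. RNA was measured by sequencing in mouse lung cells sorted for CD45, a surface protein of leukocytes. In all 5 libraries the mice carried tumours of MC38, a mouse colon adenocarcinoma line, labelled MC38/MC38. The labels give the treatment as ctrl in 3 libraries and as IR in 2, with irradiation aimed at MC38 tumours and lungs taken at 3 days after it. Strain, age, sex and dose were not given in the sources used here, and nothing in the labels says that the libraries came from separate animals, so a p-value here covers only the variation among these 5 samples, and that variation may be technical.

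Ribosomal proteins are needed in equal numbers in each ribosome, with the P1 and P2 stalk proteins as multicopy exceptions, and their messages are abundant in growing cells. Most of these messages begin with a C followed by a run of pyrimidines, the terminal oligopyrimidine (TOP) tract, through which mTOR and the RNA-binding protein Larp1 set their translation. The mouse genome also holds many processed pseudogenes of this family, which are intronless copies of the spliced message, and resting lymphocytes are known to give a larger part of their messages to ribosomal proteins than neutrophils do.

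Scaled counts summed to between 7232126 and 7425923 in the ctrl libraries and to 7544034 and 8414753 in IR replicates 1 and 2. The CD45 gene itself, Ptprc, was high in every library (15543 to 27246), and 5 of 5 pan-leukocyte markers were above 0 throughout. The fibroblast markers Col1a1, Col1a2, Col3a1 and Pdgfra and the endothelial markers Tek and Egfl7 were listed at 0 in at least 1 library. The other endothelial markers were above 0 in every library, with 428.4 to 844.3 for Pecam1, 24.3 to 84.9 for Cdh5 and 30.4 to 262.7 for Kdr, whose values in both IR libraries were above all ctrl libraries. Lung epithelial markers, which the sort should remove, were all detected (9 of 9). Fau, a ribosomal protein gene that every cell uses, was also listed at 0 in some libraries, with values of 0, 19.2 and 20.4 in ctrl and 15.9 and 0 in IR. A listed 0 is therefore given here as a value and not as absence.

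Members differ in how much of their sequence is their own, which bears on how their reads can be placed. The first 60 coding bases of 3 members are shown beside a stretch of a pseudogene at another locus, aligned without gaps. It was the most similar stretch in the annotated pseudogenes among the genes sharing most coding sequence with the member. Rps6, the small subunit protein phosphorylated by S6 kinase (chr4:86854660-86857412, minus strand), stands for the members with no coding sequence of their own, and Rpl13a, a large subunit protein (chr7:45125558-45128761, minus strand), for those with a partial match. Rps3, a small subunit protein (chr7:99477896-99483738, minus strand), stands for members with few matches. Capitals mark the bases that differ between the stretches paired here.
Rps6: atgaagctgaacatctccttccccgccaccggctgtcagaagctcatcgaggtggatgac
Rps6-ps4: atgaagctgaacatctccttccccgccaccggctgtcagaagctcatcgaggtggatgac
Rpl13a: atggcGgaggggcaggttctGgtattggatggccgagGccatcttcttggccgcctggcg
Rpl13a-ps1: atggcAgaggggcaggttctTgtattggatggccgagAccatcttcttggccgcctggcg
Rps3: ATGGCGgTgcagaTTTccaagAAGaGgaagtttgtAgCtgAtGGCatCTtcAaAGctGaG
Gm49506: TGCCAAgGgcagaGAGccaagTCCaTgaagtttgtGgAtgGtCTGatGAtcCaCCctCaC
The Rps6 stretch and that of Rps6-ps4 (chr2:75191073-75191822, minus strand) had 0 mismatches over 60 bases. Rpl13a differed from Rpl13a-ps1 (chr19:50030124-50030735, minus strand) at 3 bases and Rps3 from Gm49506 (chr15:97557791-97558290, minus strand) at 27. The search allowed any position in the copy, so the Rps3 pair cannot be taken as corresponding parts. Its 27 mismatches do not measure the divergence of Rps3 from its copy. All stretches were read from the GENCODE vM21 transcripts of GRCm38, which held all 67 members.

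Every 31-base word of each member's coding sequence was looked up in the transcripts of genes at other loci. The median member shared 95% of its words with another locus, and 45 of 67 members (67.2%) shared at least 90%. Among all 11500 coding genes tested the median was 0% and 192 (1.67%) shared at least 90%. The authors' treatment of reads that match several places is not given in the sources used here, so the values of members with near-identical copies are uncertain.

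Member levels followed this order closely. The 6 members that shared under 60% of their words (among them Rpl8, Rps3, Rpl4, Rps9 and Rpl22) had a median level of 3235 scaled counts per kb of exon and held 43.1% of all counts of the 67 members. Members sharing 60% to under 90% (16 genes) had a median of 1193 per kb, and those sharing 90% to under 100% (22 genes) a median of 229 per kb. The 23 members without any word of their own had a median of 40.6 per kb and held 3.25% of the counts. Across the 67 members, Spearman's rho between the percent shared and the level per kb was -0.85 per kb of exon and -0.81 per kb of coding sequence; all points come from the same 5 libraries, and genes are not independent replicates. Levels ran from 14.2 per kb (Rps27a, a ubiquitin fusion) to 9642 per kb (Rplp1, one of the multicopy stalk proteins), a 677-fold range, and Rpl8 was the highest outside the stalk at 9242 per kb. All 23 members with a mean value under 100 shared at least 90% of their words, and 15 of the 18 members with a mean of at least 1000 shared less. Exceptions ran the other way in 4 fully shared members with a mean of at least 200, which were Rps28, Rpl41, Rpl27a and Rpl13. Whether the counting of shared reads set these levels was not tested.

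**Figure D1:**
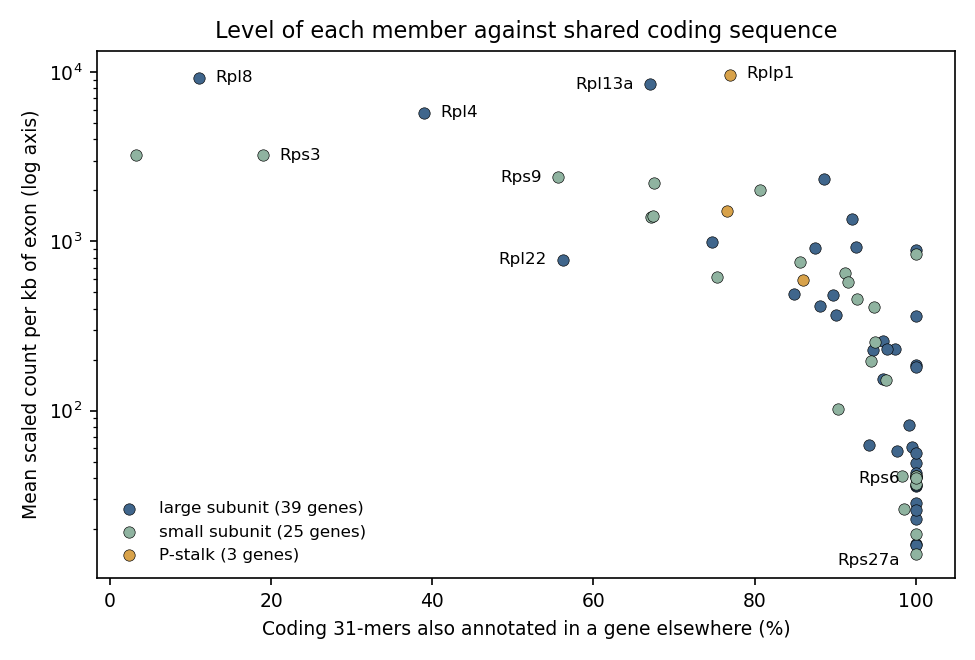
Mean scaled count per kb of exon (log axis) of each of the 67 members against the percent of its coding 31-base words also annotated in a gene at another locus; points are genes, coloured by subunit. Levels run from 9642 per kb (Rplp1) down to 14.2 per kb (Rps27a), and the fully shared members at the right have a median of 40.6 per kb.

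The start regions of the members were read for the TOP tract, because it is the feature by which the family is regulated as a group. RefSeq promoter windows (GRCm38.p6) matched 49 of 67 members with 59 annotated starts. In the 30 bases centred on the start, a TOP-like run (CTTTT or its variant CTTTC, likewise CTTCC or its variant CTTCT) was present on the transcript strand at 28 of 59 member starts (47.5%) and at 16.2% of all 32851 starts. On the other strand the same letters were present at 9 of 59 member starts (15.3%) and at 17.2% of all starts. The windows of Rpl4, Rpl13a, Rplp2 and Rps6 show the first such match in capitals and the window of Rps3 has none of these forms. A match could lie anywhere in the window and need not begin at the annotated start.
Rpl4: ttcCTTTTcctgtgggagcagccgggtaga
Rpl13a: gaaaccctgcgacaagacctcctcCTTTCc
Rplp2: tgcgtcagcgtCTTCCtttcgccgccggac
Rps6: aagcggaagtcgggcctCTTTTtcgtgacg
Rps3: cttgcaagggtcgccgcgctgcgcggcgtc
These lie at chr9:64173372-64173401 (plus strand), chr7:45128731-45128760 (minus), chr7:141447636-141447665 (plus), chr4:86857353-86857382 (minus) and chr7:99483695-99483724 (minus), and each is written in the direction of its transcript. The letters CCGGAAG, the core that ETS factors bind, were present on either strand in the 300 bases around 22 of 59 member starts (37.3%) and 8.86% of all starts. A match of letters is a description of the window, not a measured site.

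The 67 members together held 1.30%, 0.881% and 1.10% of the scaled counts of ctrl replicates 1, 2 and 3 and 1.04% and 0.814% of those of IR replicates 1 and 2. The ctrl share averaged 1.09% ± 0.210 (SD, n = 3), and the IR share averaged 0.928% ± 0.162 (SD, n = 2). The IR mean was lower by 0.164 points (IR minus ctrl, -0.164), while the ctrl libraries alone spanned 0.419 points. The groups overlapped, since IR replicate 1 lay within the ctrl range and IR replicate 2 just below its lowest library. That last order depended on the library totals, of 7320415 in ctrl replicate 2 and 8414753 in IR replicate 2. The members' summed scaled counts were lower in ctrl replicate 2 (64476) than in IR replicate 2 (68469). In sorted bulk cells such as these, fewer cells of a kind rich in these messages and less of the message per cell cannot be told apart.

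Each structural class moved with the whole. Large subunit genes held 0.723%, 0.494% and 0.604% in ctrl and 0.581% and 0.459% in IR. Small subunit genes held 0.436%, 0.299% and 0.383% in ctrl and 0.362% and 0.274% in IR. The P-stalk genes held 0.141%, 0.0875% and 0.111% in ctrl and 0.0998% and 0.0807% in IR. As a share of the total, every class was highest in ctrl replicate 1 and lowest in IR replicate 2. As summed scaled counts, every class was lowest in ctrl replicate 2. The ratio of large to small subunit counts lay between 1.58 and 1.68 over the 5 libraries. Removing mitochondrially encoded RNA from the total gave shares of 1.44%, 0.980% and 1.23% in ctrl and 1.15% and 0.881% in IR, in the same order of libraries.

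**Figure D2:**
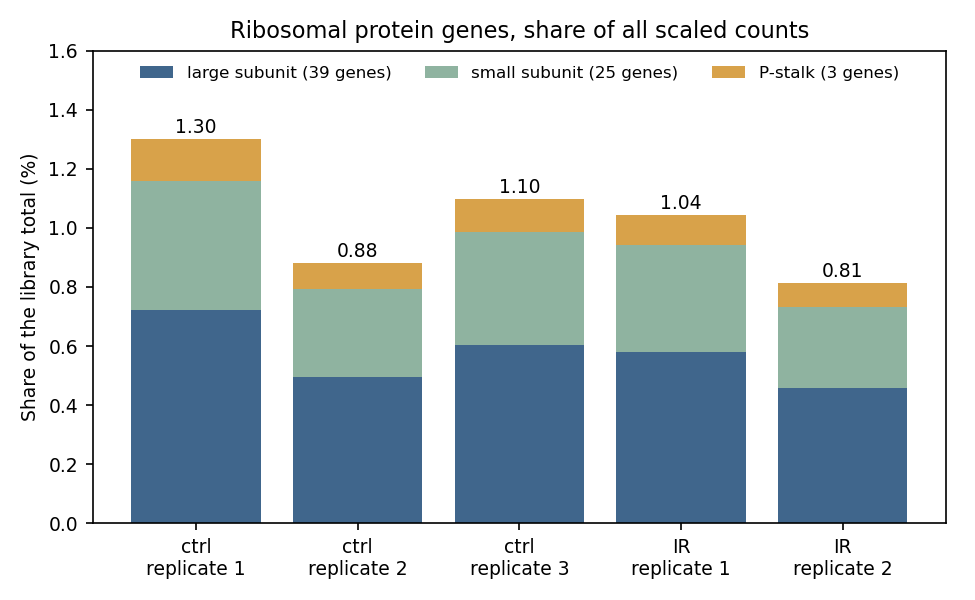
Share of each library's scaled counts (%, bars from 0) held by the 67 members, stacked by large subunit, small subunit and P-stalk genes. The ctrl libraries span 0.881% to 1.30% and the IR libraries 0.814% to 1.04%, so the groups overlap.

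Members moved together from library to library. The deviation of each member from its ctrl mean, on the log2(value + 1) scale, had a median of 0.21 in ctrl replicate 1, -0.26 in ctrl replicate 2, 0.06 in ctrl replicate 3, 0.03 in IR replicate 1 and -0.26 in IR replicate 2. Over all genes tested the same medians lay between -0.06 and 0.03. Members below their ctrl mean numbered 11, 54 and 24 of 67 in ctrl replicates 1 to 3 and 33 and 48 in IR replicates 1 and 2, where 49.2%, 51%, 45.1%, 48.1% and 52.6% of all genes were below theirs. The library with low values in most members was thus a ctrl library as much as an IR library, and the median member differed by 0 between ctrl replicate 2 and IR replicate 2. Large subunit, small subunit and P-stalk genes had medians of -0.26, -0.26 and -0.35 in ctrl replicate 2 and of -0.24, -0.30 and -0.30 in IR replicate 2.

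The pattern was clearest in the 39 members with a mean value of at least 200. Ctrl replicate 2 was the lowest ctrl library for 33 of them (84.6%), against 37.4% of the 5516 genes at that level. Ctrl replicate 1 was the highest ctrl library for 30 (76.9%), against 33.4%. IR replicate 2 was below IR replicate 1 for 31 (79.5%), against 51.9% of all genes tested, low values included. The 5516 genes had median deviations from the ctrl mean of -0.02 in IR replicate 1 and 0.01 in IR replicate 2. For every one of the 10 pairs of libraries, the SD of the log2 differences over these members (0.227 to 0.427) was smaller than the SD over all genes at that level (0.375 to 0.757). The 22 members that shared under 90% of their coding words gave medians of 0.21, -0.32 and 0.07 in ctrl and 0.06 and -0.20 in IR, with all 22 below their ctrl mean in ctrl replicate 2. The libraries and their scaling are common to all of these genes, so the counts describe these libraries and are not replicate evidence.

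**Figure D3:**
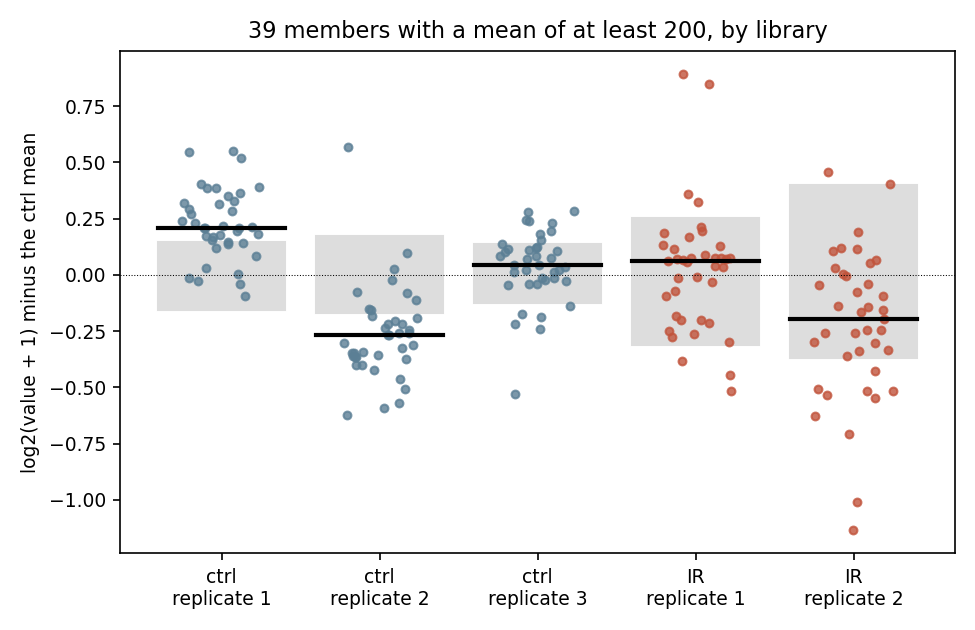
Deviation of log2(value + 1) from the ctrl mean for the 39 members with a mean value of at least 200, by library; points are genes, black lines their medians, and grey boxes the middle 50% of all 5516 genes at that level. Points sit high in ctrl replicate 1 (median 0.21) and low in ctrl replicate 2 (-0.27) and IR replicate 2 (-0.19).

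Between IR and ctrl, no member passed the test. With limma and Benjamini-Hochberg adjustment over all genes, 0 of 67 members were called at an adjusted p under 0.05, where 192 of 12777 genes (1.5%) were called, 146 higher (1.14%) and 46 lower (0.36%). Scaled to library totals instead, 257 genes were called, 141 higher and 116 lower, and again 0 members. At an unadjusted p under 0.05 there were 3 members (Rpl10a, Rpl37a and Rps15a, all lower in IR) against 15% of all genes, and limma was the only tool run. Log2 fold changes were negative for 44 members and positive for 23, where 53.2% of all genes were negative, and their median was -0.22 against -0.05 for all genes. Without IR replicate 2 the median was 0.03 (33 of 67 negative), beside 0.03 for all genes, and without ctrl replicate 1 it was -0.05 (37 negative), beside -0.06. In the 22 members sharing under 90% of their coding words the median was -0.06 (13 negative). The smallest adjusted p of a member was 0.173. Without IR replicate 1, Rpl10a, Rpl31 and Rplp2 were called lower, 3 of 67 members, where 8.13% of all genes were called.

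Counts of non-overlapping groups were near those of other genes in 1 direction only. Both IR libraries lay below all ctrl libraries for 12 members (17.9%), against 16.3% of all genes. Both lay above for 0 members, against 15.2%. The 12 included 8 with a mean under 100, and the other 4 were Rpl37a, Rpl18, Rpl13 and Rps15. For the remaining 55 members the groups overlapped.

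The 5 members with the highest mean value held 50.8% of the members' counts. Rpl13a, which also takes part in interferon-controlled translational silencing, had values of 13647, 7969 and 10131 in ctrl and 8977 and 8648 in IR. Both IR values lay inside the ctrl range, and its log2 fold change was -0.23 (SE 0.20; adjusted p = 0.636 by limma). Rpl8, a core protein of the large subunit near the peptidyl transferase centre (chr15:76904078-76906314), had values of 11349, 8445 and 9909 in ctrl and 9617 and 8923 in IR. Its IR libraries, too, were within the ctrl range, with a log2 fold change of -0.09 (SE 0.18). Rpl4, which lines the peptide exit tunnel (chr9:64173375-64178666), had values of 10009, 7371 and 9277 in ctrl and 10092 and 7449 in IR. IR replicate 1 lay just above the ctrl range and IR replicate 2 near its bottom, and the log2 fold change of Rpl4 was -0.02 (SE 0.19).

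Rps3, at the messenger entry channel of the small subunit, had values of 7985, 5317 and 6654 in ctrl and 6152 and 4588 in IR. Only IR replicate 2 lay outside the ctrl range, and the log2 fold change was -0.30 (SE 0.20; adjusted p = 0.506 by limma). Rps15a, a small subunit protein chosen after its values were seen for its unadjusted p (0.0428 by limma), had values of 2113, 1288 and 1800 in ctrl and 1401 and 1041 in IR. Its IR replicate 1 lay above ctrl replicate 2, so the groups overlapped.

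The P-stalk recruits the elongation factors. Its anchor Rplp0 (chr5:115559467-115563727) had values of 2754, 1812 and 2537 in ctrl and 2558 and 2340 in IR, all within the ctrl range, and a log2 fold change of 0.07 (SE 0.21) that was -0.05 when scaled to library totals. Rplp1 (chr9:61913284-61914542) had values of 6681, 4012 and 4942 in ctrl and 4284 and 4139 in IR. Its IR libraries were close to the lowest ctrl library, and its log2 fold change was -0.28 (SE 0.21). Rplp2 (chr7:141447370-141451585) had values of 780.1, 577.3 and 733.7 in ctrl and 686.1 and 314.3 in IR. It was low in IR replicate 2 alone, and its log2 fold change of -0.57 (SE 0.30; adjusted p = 0.367 by limma) was the most negative of the 39 members with a mean of at least 200. Without IR replicate 2 it was -0.01, and without IR replicate 1 it was -1.13 with an adjusted p of 0.0246 by limma.

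Log2 fold changes of the 39 higher members ran from that value to 0.51 for Rps21, and 37 of them were under 0.5 in size. Rps21, a small subunit protein, had values of 200.3, 168.1 and 245.3 in ctrl and 376.7 and 219.4 in IR. A single library, IR replicate 1, stood above the rest. Rpl23, which sits at the subunit interface, had 1680, 1078 and 1810 in ctrl and 1626 and 2043 in IR. Its groups overlapped, with a log2 fold change of 0.29 (SE 0.23).

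The members with larger fold changes had low values, and as nearly all of their sequence is shared their values are uncertain. The median SE of the log2 fold change was 0.95 for the 23 members with a mean under 100 and 0.24 for the 39 with a mean of at least 200. Rpl10a had values of 65.1, 105.1 and 48.9 in ctrl and 35.5 and a listed 0 in IR. Both IR libraries were below all ctrl libraries, and its log2 fold change was -3.54 (SE 1.24; adjusted p = 0.173 by limma), which was -0.95 without IR replicate 2. Rpl31 had 49.9, 18.2 and 57 in ctrl and 69.2 and a listed 0 in IR. It was highest and lowest in the 2 IR libraries, and its log2 fold change of -2.20 became 0.87 without IR replicate 2.

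Rpl28 had values of 36.3, 41.1 and 22.6 in ctrl and 4.7 and 12.6 in IR, and a log2 fold change of -1.92. Rpl27 had 88.8, 61.2 and 57 in ctrl and 29 and 22.7 in IR, and one of -1.36. In both genes each IR library was below each ctrl library, and neither passed the test. Rpl37a had values of 142.8, 226.6 and 140.2 in ctrl and 79.4 and 48.7 in IR, with a log2 fold change of -1.40 (SE 0.50; adjusted p = 0.178 by limma). It was the member with a mean above 100 that stood lowest in IR. The most positive values were those of Rpl11 (0.78) and Rpl10 (0.72), followed by Rps21 and Rpl15 (0.46). Rpl11, which binds Mdm2 when ribosome assembly is disturbed, had 43.9, 8.2 and 35.7 in ctrl and 48.6 and 35.3 in IR. Only ctrl replicate 2 stood apart from its other libraries.

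The members nearest the filter were Rps12 and Rps27a. Rps12 had 15.2, 15.5 and 9.4 in ctrl and a listed 0 and 79.3 in IR, so its sign rested on which IR library was read. Rps27a had 8.4, 15.5 and 24.1 in ctrl and 8.4 and 6.7 in IR.

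**Figure D4:**
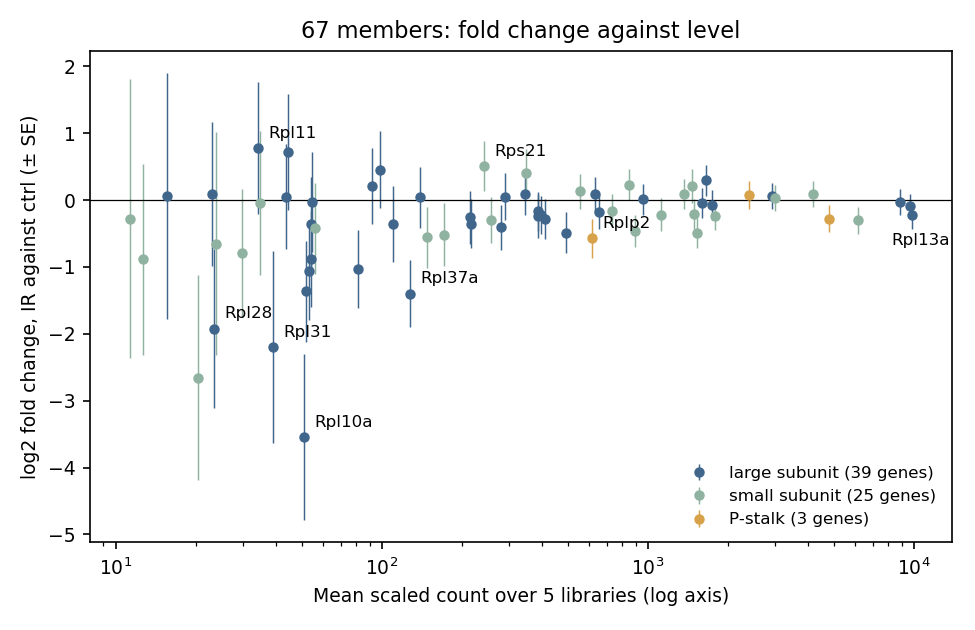
Log2 fold change of IR against ctrl with its SE (vertical axis) for each of the 67 members against the mean scaled count over 5 libraries (log axis); points are genes, coloured by subunit. Members with a mean of at least 200 lie between -0.57 and 0.51, and the large negative values belong to members with low means and wide errors.

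Ribosomal protein genes outside the rule, with Rps27l, Rpl3l and Rps4l that it left out, gave 0 calls among 11 tested. Their median log2 fold change was -0.88, with 9 negative (81.8%), against 53.2% of all genes. That median is the value of Fau (SE 2.07), which was listed at 0 in some libraries. Both IR libraries were below all ctrl libraries for 4 (36.4%) and above for 1 (9.09%), against 16.3% and 15.2% of all genes. The 4 were Rpl22l1, Rpsa, Rps4l and Rpl3l, with low mean values of 123.6, 79.7, 48.1 and 13.3. Rack1, the scaffold on the small subunit head, had 5957, 4740 and 6051 in ctrl and 6010 and 4399 in IR, with ctrl replicate 2 and IR replicate 2 low. Its log2 fold change was -0.11 (SE 0.20). Rps3a1 and Rpl7l1 had log2 fold changes of -0.13 and -0.04, and Rpl22l1, a paralog of Rpl22, one of -1.28 (limma adjusted p = 0.218). The other TOP messages gave 0 calls among 17 and a median log2 fold change of -0.05. Elongation factor Eef2 had 22484, 15621 and 19620 in ctrl and 19531 and 16661 in IR, again lowest in ctrl replicate 2. Eef1a1 (-0.09), the poly(A)-binding protein Pabpc1 (0.02) and vimentin, Vim (0.16), differed between groups by less than their errors.

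Genes that build ribosomes gave 1 call among 36 tested, which was lower in IR, with a median log2 fold change of -0.30 and both IR libraries below all ctrl libraries for 13 (36.1%). Over all genes tested 0.36% were called lower and both IR libraries were below all ctrl libraries for 16.3%. The call was Mdn1, the AAA ATPase that strips assembly factors from the pre-large subunit. It had 1220, 1788 and 1567 in ctrl and 820.7 and 788.4 in IR and fell by 0.90 on the log2 scale (SE 0.22, limma adjusted p = 0.0391). That adjusted p was between 0.0972 and 0.188 when any 1 library other than IR replicate 1 was left out, 0.486 with the mean trend off, 0.0560 without robust estimation and 0.0553 without the filter. Unlike the members, Mdn1 was not low in ctrl replicate 2, where it was highest. Regulators of ribosomal protein synthesis gave 0 calls among 15 and a median of -0.24. Both IR libraries were below all ctrl libraries for 6 (40%) and above for 2 (13.3%), against 16.3% and 15.2% of all genes. Log2 fold changes were -0.23 for Larp1, -0.18 for Mdm2, 0.15 for Eif4ebp2 and 0.39 for Max. They were larger for Eif4ebp1 (0.92) and Rptor (-0.74). Eif4ebp1, Rptor and Max were among the genes whose groups did not overlap. Proteins of the mitochondrial ribosome, a separate machine, gave 0 calls among 74 and a median of 0.08. Their share of counts was 0.134%, 0.112% and 0.123% in ctrl and 0.130% and 0.103% in IR, lowest in the same pair of libraries as the cytosolic members.

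Other measures differed between these libraries beside the member shares. B cell markers (9 of 9 detected, 1 lower in IR) summed to 0.177%, 0.101% and 0.180% in ctrl and 0.105% and 0.0785% in IR. T cell markers (10 of 10 detected, 3 lower) summed to 0.100% to 0.125% in ctrl and 0.0514% to 0.0659% in IR. NK cell markers (6 of 6 detected, 0 called) summed to 0.0332% to 0.0580% in ctrl and 0.0319% to 0.0518% in IR. B cell markers were low in ctrl replicate 2 and in both IR libraries. In IR replicate 1 both the B cell markers (0.105%) and the members (1.04%) lay within their ctrl ranges. The B cell markers were there close to ctrl replicate 2 (0.101%). NK cell markers were lowest in ctrl replicate 2 and IR replicate 2, as the members were, and T cell markers separated the groups. Neutrophil markers (10 of 10 detected, 4 higher) summed to 0.436% to 0.747% in ctrl and to 1.0% and 1.76% in IR. Lung epithelial markers (2 of 9 higher) summed to 0.307% to 0.365% in ctrl and to 1.55% and 0.676% in IR. Scgb1a1, a club cell secretory protein, made up most of that sum, with 18790 to 23115 in ctrl and 103970 and 50989 in IR. Epcam went the other way, with 133.4 to 185.1 in ctrl and 45.8 and 74.8 in IR, and Cldn18 and Sftpc had log2 fold changes of -1.73 and -0.57, none of the 3 passing the test. No marker of these 5 lists was at 0 in any library. The nuclear RNA Malat1 took 1.14%, 2.25% and 1.12% of ctrl counts and 0.838% and 1.22% of IR counts, highest in ctrl replicate 2. The part of any of these in the member shares was not tested.

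**Figure D5:**
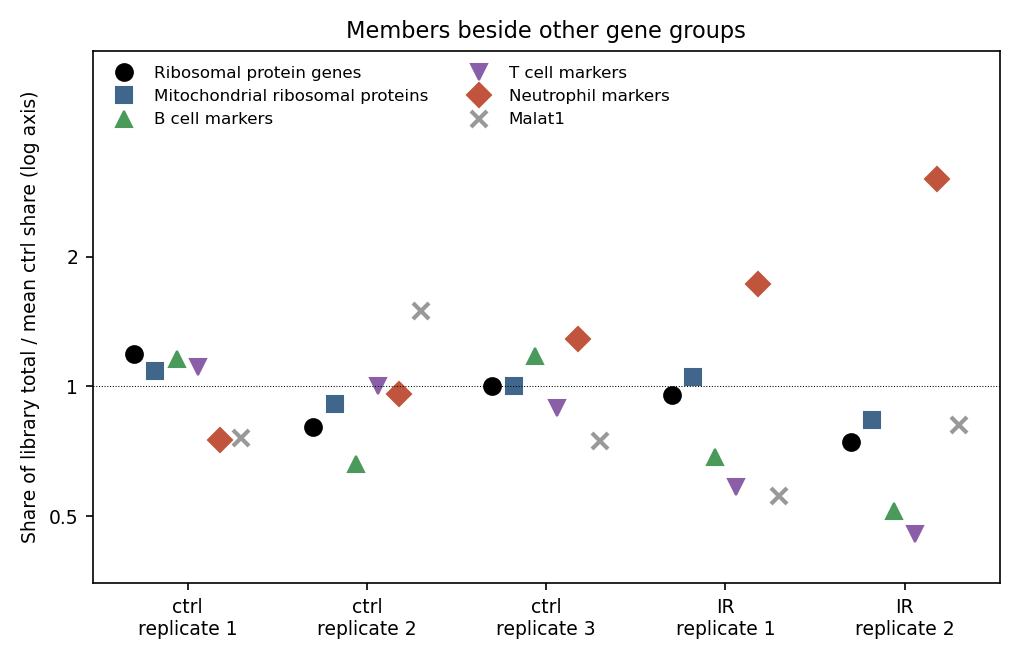
Share of the library total, divided by the mean share in the 3 ctrl libraries (log axis), for the 67 members and for mitochondrial ribosomal proteins, B cell, T cell and neutrophil markers and Malat1; each symbol is 1 library, set side by side for legibility. The members are low in ctrl replicate 2 (0.881% of counts) and IR replicate 2 (0.814%). The B cell markers are low in those libraries and also in IR replicate 1 (0.105%), where both they and the members are within their ctrl ranges.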

How the data were processed

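CD45+ lung cells were sequenced from 3 ctrl and 2 IR libraries with a stranded total RNA kit for low inputs, per the labels' protocols. The deposited table holds a scaled signal: gene read counts that the authors scaled, with 1 decimal, without naming the method. HISAT2, HTSeq and mm10 are named in the submitters' processing notes; their roles, the annotation, the strand setting and the treatment of multiply matching reads are unstated (not given in the sources used here). Whole reads could not be recovered, so counting error is unknown and no count test was run.

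Rows reaching 10 in 2 or more libraries (12777 of 14462) were fitted as log2(value + 1) with limma 3.58.1 (R 4.3.3, statmod 1.5.0; mean trend, robust estimation, no covariate). The two-sided p-values were adjusted by Benjamini-Hochberg over all rows fitted. Adding 1 shrinks the folds of low values, but a listed 0 in a single library can still give a large fold or set its sign. Rps12, for example, had the higher mean in IR (39.65 against 13.37 in ctrl) and a log2 fold change of -0.65. Groups followed the treatment label, and replicate numbers follow accession order only. TMM factors for an alternative were computed by the published formula. The fit was tested on simulated data. Shared sequence was the percent of a member's coding 31-mers, on both strands, found in GENCODE vM21 transcripts of genes at other loci; genes overlapping the member were not counted.

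The members, lists and tests were chosen with earlier results of these data known. Named members were those called, the 5 with the highest mean, the 6 with the largest log2 fold change in each direction, the P-stalk and the 2 nearest the filter; other lists gave up to 4 genes, those called or else those with the highest mean. Some members that this rule selects are not reported here. Fau, Rps15a, Rps6, Ptprc, Eif4ebp1, Rptor and the endothelial and epithelial markers given by name were added after their values were seen. Alternatives covered scaling, pseudocount, filter, variance options, denominators and leaving out each library.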

Additional observations from a re-analysis of the deposited data

How the results depend on the processing

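The count of 0 members called held under each alternative run except without IR replicate 1. There Rpl10a, Rpl31 and Rplp2 were called lower, from a single IR library. The count of all genes called was 192. It was 0 with the mean trend off (limma; 1245 at an unadjusted p under 0.05) and ranged from 19 to 1006 when 1 library was left out, namely 19, 23 and 95 on leaving out ctrl replicates 1, 2 and 3 and 1006 and 96 on leaving out IR replicates 1 and 2. The median member log2 fold change ranged from -0.30 to 0.034 when 1 library was left out, the latter without IR replicate 2. With values scaled to totals, the all-gene median moved by -0.12, and the member median was then -0.33 beside -0.17 for all genes. In alternatives chosen after seeing the data, it was -0.16 in the members with a mean of at least 200 (24 of 39 negative) and -0.059 in those sharing under 90% of their coding words (13 of 22 negative), beside -0.053 for all genes. Negative members numbered 44 of 67 as reported, 57 scaled to totals, 53 with array weights, 56 of 66 without ctrl replicate 2 and 33 without IR replicate 2. The share difference ranged from -0.279 to -0.0497 points when 1 library was left out.

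Of 279 values for 19 named members, 10 changed sign, in 5 genes. When 1 library was left out the log2 fold change ranged from -0.20 to 0.018 for Rpl8, -0.24 to 0.20 for Rpl4, -5.26 to 0.87 for Rpl31, -0.11 to 0.19 for Rplp0 and -3.81 to 2.51 for Rps12. It was -0.051 for Rplp0 scaled to totals and -0.0014 with array weights, and 0.18 for Rps12 with a pseudocount of 5. Among other genes it ranged from -0.33 to 0.12 for Rack1, -0.31 to 0.067 for Rps3a1, -0.34 to 0.26 for Rpl7l1, -0.22 to 0.043 for Eef2, -0.055 to 0.10 for Pabpc1, -0.31 to 0.14 for Eef1a1, -0.36 to 0.057 for Mdm2, -0.43 to 0.075 for Gas5, -0.29 to 0.52 for Zfas1, -1.45 to 0.10 for Snhg12 and -0.49 to 0.079 for Mrpl43. Pabpc1 was -0.10 scaled to totals and Zfas1 -0.15 with array weights. The cause of these changes was not tested.

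No paired analysis was possible because the labels carry no shared replicate numbers. A count test on recovered reads was not run, since whole reads could not be recovered. With 3 against 2 libraries and an unknown depth, differences in members with low values were not detectable unless large.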

Other observations

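Transcripts that host small nucleolar RNAs, several of them TOP messages, gave 0 calls among 6 tested, by limma, with a median log2 fold change of -0.42. Gas5 had 670.2, 513.4 and 655.6 in ctrl and 641.2 and 452.2 in IR, low in the same pair of libraries as most ribosomal protein genes, and a log2 fold change of -0.18. Snhg5 had 141.2, 76.7 and 84 in ctrl and 43 and 10 in IR, with both IR libraries below all ctrl libraries and a log2 fold change of -2.15 (limma adjusted p = 0.163). Zfas1 and Snhg12 had log2 fold changes of 0.15 and -0.67.

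Rows named as ribosomal protein pseudogenes numbered 24, of which 18 were tested and 0 called. They held 0.0117%, 0.00988% and 0.00824% of ctrl counts and 0.00900% and 0.00448% of IR counts. Rpl13a-ps1 had 27.9, 69.5 and 46 in ctrl and 29 and 3.3 in IR, and unlike Rpl13a it was highest in ctrl replicate 2. Among mitochondrial ribosomal proteins, Mrpl52 had 340.6, 178.1 and 274.5 in ctrl and 400.1 and 645.6 in IR, both IR libraries above all ctrl libraries (log2 fold change 0.99, limma adjusted p = 0.153).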
